A study of Mus musculus with 8 samples.

Results

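Heat shock proteins are molecular chaperones: they bind unfolded or newly made proteins, keep them from clumping and help them fold. The family was followed here in whole newborn skull bone through 10 genes, chosen by name from the 49315 gene IDs of a count table, and all 10 matched a row and passed the filter on low counts. They were compared between 4 libraries of Girk3 knockout calvaria (KO) and 4 libraries of wild-type calvaria (WT), all from female C57BL6 mice 2 to 3 days old. Girk3, encoded by Kcnj9, is a subunit of G protein-gated potassium channels. The KO mice are labelled Girk3-/-, and the labels name no Cre driver or single cell type. Calvaria are the flat bones that roof the skull. They were rinsed, frozen and homogenized, so each library mixes bone cells with other cells of the tissue. Nothing in the labels says whether pups came from separate litters, and p-values weigh differences against the spread between these 8 libraries only.

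Cells keep some of these chaperones at high levels at all times, such as Hspa8, Hsp90ab1 and the mitochondrial pair Hspd1 and Hspe1. Others, above all Hspa1a and Hspa1b, are held low until heat or other damage to proteins releases the transcription factor HSF1, which binds heat shock elements in their promoters. Hspb1 is a small heat shock protein that is abundant in muscle.

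Library totals were 35392465 to 54290034 counts in KO and 42677925 to 49600047 counts in WT. KO replicate 4 had the smallest total, yet the most genes with counts, 28520, against 24545 to 25729 in the other libraries. The cause was not tested. Kcnj9 held 2, 5, 7 and 9 counts in the KO libraries and 0, 0, 1 and 4 in the WT libraries, and 3 of the 4 KO libraries held more than any WT library. Counts this low do not check the labels, and the genotypes below are those of the labels. Levels are in CPM, the standard unit for counts scaled to a common library total. The 10 osteoblast markers were all measured, and their summed level was 147027 to 193252 CPM in KO and 169673 to 188212 CPM in WT, most of it from Col1a1 and Col1a2. Bglap, which encodes osteocalcin, was the 1 osteoblast marker called (log2 fold change -0.48 ± 0.101, adjusted p = 0.0383). Of 10 erythroid markers 1 was called, Tfrc, lower in KO, and 6 of the 10 had a log2 fold change below 0. Of 8 tested brain markers 1 was called, Mbp, lower in KO, and 6 of the 8 were below 0. Skeletal muscle RNA varied between libraries within a genotype. The summed level of 20 muscle genes was 82.9 CPM in KO replicate 2, 219 CPM in KO replicate 3 and 40.4 CPM in WT replicate 3, against 924 to 3588 CPM in the other 5 libraries. Hereafter these 3 libraries are called muscle-poor.

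None of the 10 heat shock protein genes passed the genotype test. With edgeR's quasi-likelihood test over 17743 genes and a Benjamini-Hochberg adjusted p under 0.05, 0 members were lower and 0 higher in KO, where 1.32% of all tested genes were called in either direction. At an unadjusted p under 0.05 there was 1 member, Hspa8, a share of members below the 17.4% found over all genes. DESeq2 called Hspa8 alone, lower in KO (log2 fold change -0.22 ± 0.0663, SE, adjusted p = 0.0193), where it called 3.44% of its genes lower, and limma-voom called no member. The log2 fold changes of KO over WT ran from -0.49 to 0.03 with a median of -0.15, against a median of 0.00 over all tested genes, and 8 of the 10 were below 0, as were 50.1% of all genes. For 9 of the 10 members the 95% interval of the change stayed within 2-fold in either direction, the exception being Hspb1. These intervals are not adjusted for the number of genes.

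**Figure D1:**
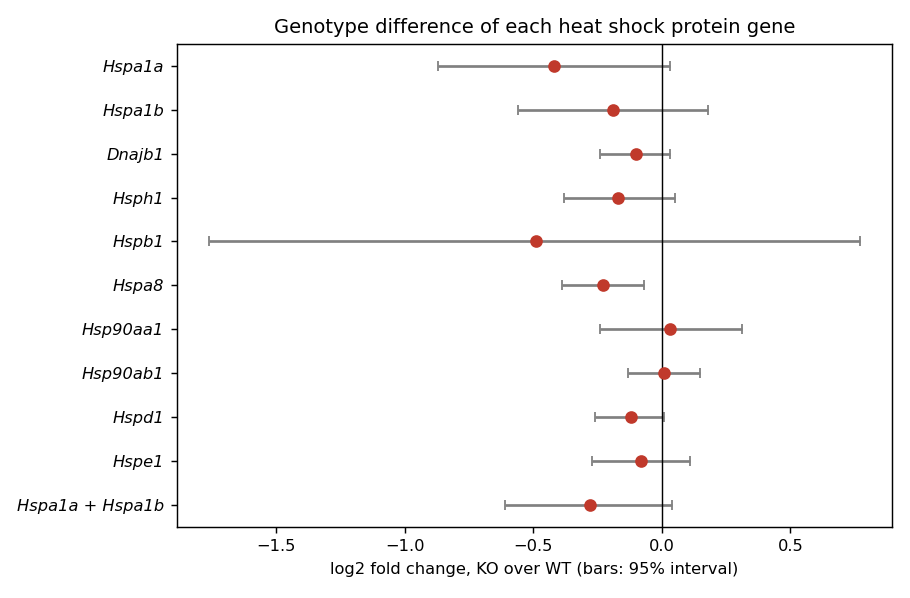
Log2 fold change of KO over WT (x axis) for each heat shock protein gene and for the summed Hspa1a and Hspa1b counts, with 95% intervals from edgeR's fit. The Hspb1 interval is the widest, from -1.76 to 0.77, and the Hspa8 interval lies below 0.

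In 4 members, Hspa1a, Dnajb1, Hspa8 and Hspd1, every KO library lay below every WT library, as in 5.96% of all tested genes, and in no member did every KO library lie above. That separation rested on the scaling between libraries. Scaling by library totals, without the TMM factors that correct for the make-up of each library, left Hspa1a alone separate (1 of 10, with 3.14% of all genes). Without the 3 muscle-poor libraries, 7 of 10 members were separate, with 13.9% of all genes. Fewer libraries were then left in each group, so that separation comes more easily.

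**Figure D2:**
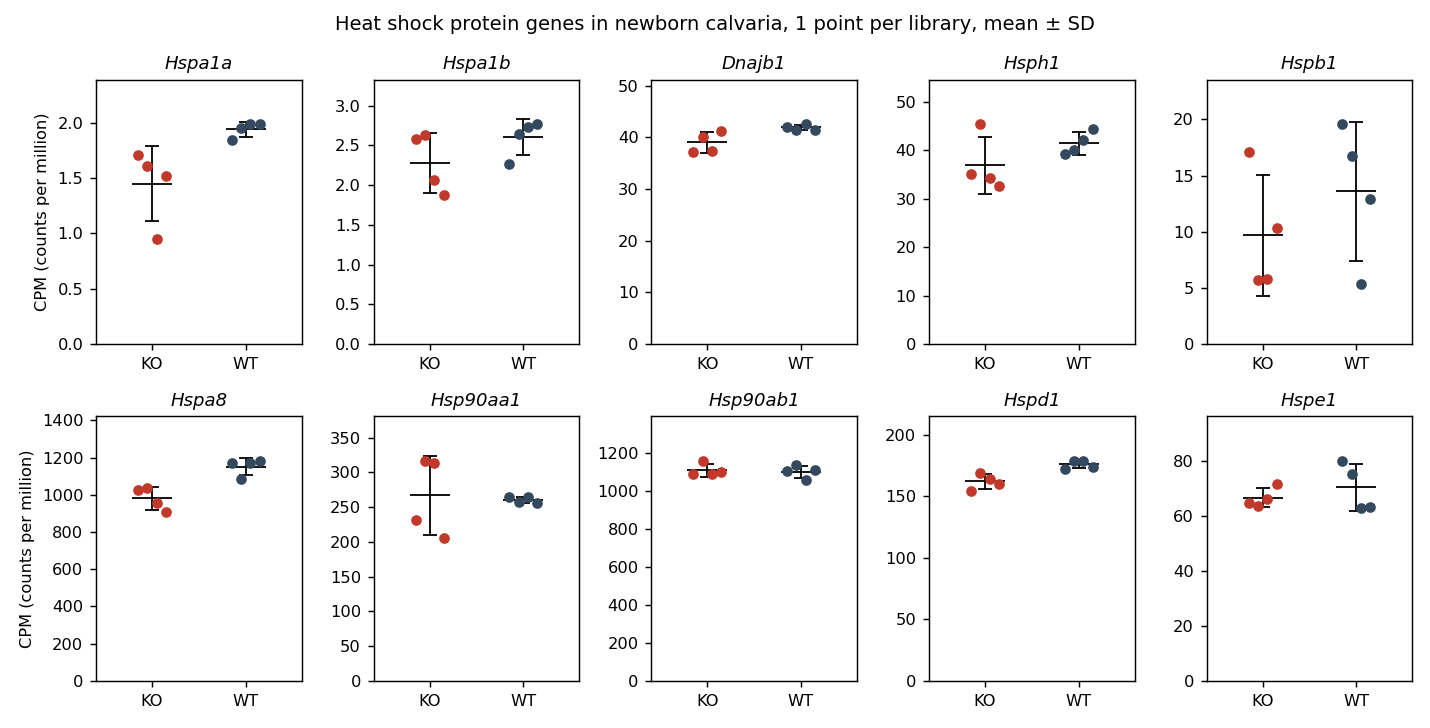
Level of each heat shock protein gene in CPM (y axis, from 0) in the 4 KO and the 4 WT libraries, with mean and SD. Hspa8 runs from 907 to 1038 CPM in KO and from 1085 to 1184 CPM in WT, whereas Hsp90aa1 is spread from 205 to 317 CPM in KO and held between 256 and 264 CPM in WT.

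Levels per kilobase of exon set the family in order. Hsp90ab1 had 369 ± 11.3 CPM per kb in KO and 366 ± 10.8 in WT (SD, n = 4 each, here and in the following levels), and Hspa8 had 228 ± 14.5 in KO and 268 ± 10.5 in WT. Hsp90aa1 followed with 67.9 ± 14.5 CPM per kb in KO and 66.3 ± 1.04 in WT, and Hspd1 with 61.2 ± 2.44 in KO and 66.7 ± 1.25 in WT. These neighbours did not differ beyond their spread. Hspe1 stood at 45.2 ± 2.36 CPM per kb in KO and 47.8 ± 5.88 in WT. Dnajb1 had 12.2 ± 0.638 CPM per kb in KO and 13.1 ± 0.165 in WT, and Hspb1, within whose spread Dnajb1 lies, had 9.42 ± 5.22 in KO and 13.2 ± 5.97 in WT. Hsph1 had 5.08 ± 0.796 CPM per kb in KO and 5.71 ± 0.324 in WT. The inducible HSP70 genes were at the foot, Hspa1b with 0.815 ± 0.133 CPM per kb in KO and 0.929 ± 0.0814 in WT, and Hspa1a with 0.488 ± 0.115 in KO and 0.655 ± 0.0229 in WT. Lengths are those of all annotated exons together, so a gene with long rare exons appears lower than its main transcript is. Hspa8, Hsp90aa1 and Hsp90ab1 held 87.4% to 88.5% of the counts of the 10 genes in each library, and the 10 genes held 0.272 ± 0.0164% of all counts in KO and 0.28 ± 0.00315% in WT (SD, n = 4 each).

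Hspa1a and Hspa1b encode the stress-inducible form of HSP70, the chaperone that binds and releases exposed stretches of unfolded proteins in a cycle driven by ATP. They are neighbours on the minus strand of chromosome 17 (Hspa1a, ENSMUSG00000091971, 34969190 to 34972156; Hspa1b, ENSMUSG00000090877, 34956436 to 34959238; GRCm38/mm10), and each is a single exon. Their promoters are shown because HSF1 acts through them and because they are nearly the same: 3 of the 250 bases before the start differ, 1 of them within the stretches printed here, chr17:34972157-34972306 and chr17:34959239-34959388 (RefSeq, GRCm38.p6, both 5′ to 3′ on the minus strand). Capitals mark a pair of adjoining pentamers nGAAn and nTTCn, the units of a heat shock element, and an inverted CCAAT box.
Hspa1a: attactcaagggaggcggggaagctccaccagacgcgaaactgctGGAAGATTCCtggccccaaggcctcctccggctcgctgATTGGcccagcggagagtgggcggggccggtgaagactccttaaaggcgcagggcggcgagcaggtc
Hspa1b: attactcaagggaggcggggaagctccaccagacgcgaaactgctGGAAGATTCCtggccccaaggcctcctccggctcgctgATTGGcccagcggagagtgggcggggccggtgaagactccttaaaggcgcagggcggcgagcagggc
The coding sequences were 99.4% identical. Of the 100-base windows of the Hspa1a transcript, 47.1% also occur in Hspa1b, and 49.9% of those of Hspa1b occur in Hspa1a, so the split of reads between them is uncertain. Besides, 19% of the exon bases of Hspa1a overlap the gene model Gm20481 on the opposite strand.

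Both inducible genes were low in every library. Hspa1a was at 1.71, 1.61, 0.949 and 1.52 CPM in KO replicates 1 to 4, from 42 to 91 counts, and at 1.84, 1.95, 1.99 and 1.99 CPM in WT, from 81 to 96 counts. The KO libraries were all lower, with replicate 3 lowest, and the log2 fold change was -0.42 ± 0.206 (SE, adjusted p = 0.316, 95% interval -0.87 to 0.03). It was -0.27 without KO replicate 3 and -0.24 without the muscle-poor libraries. Hspa1b was at 2.58, 2.63, 2.06 and 1.88 CPM in KO and at 2.27, 2.64, 2.73 and 2.77 CPM in WT. Its groups overlapped (log2 fold change -0.19 ± 0.17, adjusted p = 0.612, 95% interval -0.56 to 0.18), and the change was -0.10 without KO replicate 4. With the counts of the pair summed, which does not depend on how counted reads were split but cannot restore reads left uncounted, the level was 4.29, 4.24, 3 and 3.4 CPM in KO and 4.12, 4.59, 4.72 and 4.76 CPM in WT, again with overlap (log2 fold change -0.28 ± 0.148, adjusted p = 0.347, 95% interval -0.61 to 0.04). KO replicates 3 and 4 were the low ones.

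Hspa8 (ENSMUSG00000015656, chromosome 9 from 40800984 to 40810087, plus strand) encodes HSC70, the HSP70 that cells make at all times, which also strips clathrin from coated vesicles. Its level was 1028, 1038, 955 and 907 CPM in KO and 1168, 1085, 1168 and 1184 CPM in WT. The groups did not overlap, the nearest libraries being KO replicate 2 and WT replicate 2, and the KO mean of 982 ± 62.3 CPM was 0.853 of the WT mean of 1151 ± 45 CPM by the fit (log2 fold change -0.23 ± 0.0722, SE, adjusted p = 0.14, 95% interval -0.39 to -0.07). The adjusted p was 0.145 to 0.29 when single libraries were left out. Of its 100-base windows 32.1% occur in other genes, chiefly the pseudogene Gm15459, and snoRNA genes of the Snord14 group lie inside it. Within each library the log2 ratio of the summed inducible pair to Hspa8 was -8.04 ± 0.183 in KO and -7.98 ± 0.113 in WT (SD, n = 4 each; difference -0.07, exact permutation p = 0.629, two-sided, 0.943 adjusted over 3 ratios).

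Dnajb1 and Hsph1 work on HSP70. Dnajb1 (ENSMUSG00000005483, chromosome 8 from 83608193 to 83612653, plus strand) encodes an HSP40, a J-domain protein that hands clients to HSP70 and drives its ATP hydrolysis. It stood at 37.1, 40.1, 37.3 and 41.3 CPM in KO and at 42, 41.4, 42.6 and 41.5 CPM in WT. The groups were separate by a narrow margin, between KO replicate 4 and WT replicate 2 (log2 fold change -0.10 ± 0.0627, adjusted p = 0.417, 95% interval -0.24 to 0.03). Hsph1 (ENSMUSG00000029657, chromosome 5 from 149614287 to 149636376, minus strand) encodes HSP110, which exchanges the nucleotide bound to HSP70. Its levels were 35.1, 45.5, 34.4 and 32.7 CPM in KO and 39.3, 40.0, 42.1 and 44.5 CPM in WT. KO replicate 2 was the highest of the 8 libraries and the other 3 KO libraries were the lowest (log2 fold change -0.17 ± 0.0991, adjusted p = 0.413, 95% interval -0.38 to 0.05). The change was -0.27 without KO replicate 2 (adjusted p = 0.181), -0.27 without the muscle-poor libraries and -0.11 without KO replicate 4. Neither gene shares 100-base windows with another annotated transcript.

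The promoter windows differ within the family, and a few stretches are printed to show how. Windows ran from 250 bases before to 50 after each start in RefSeq's GRCm38.p6 table, which held 7 of the 10 members. It had none for Hspa8, Hsp90aa1 and Hsp90ab1. A heat shock element of 3 adjoining pentamers, alternating between nGAAn and nTTCn and read on both strands, was found in both windows of Hsph1, in 1 of 2 windows of Hspd1 and in that of Hspe1, and in 0.597% of all 32851 windows. A single pair of such pentamers, which every element of 3 contains, occurred in 15% of all windows, among them those of Hspa1a, Hspa1b and Hspb1. Dnajb1 windows held neither. A CCAAT box on either strand was in 37.4% of all windows, including those of Hspa1a and Hspa1b, both of Hsph1, and 1 of 2 windows each of Dnajb1 and Hspd1. No member window held TATAAA on either strand, found in 13.6% of all. The elements of Hsph1 (chr5:149636287-149636301, minus strand, after the start) and of Hspe1 (chr1:55088053-55088082, plus strand) and the pairs of Hspb1 (chr5:135887786-135887845, plus strand) are in capitals.
Hsph1: ATTCTGGAAAGTTCT
Hspe1: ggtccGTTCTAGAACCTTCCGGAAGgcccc
Hspb1: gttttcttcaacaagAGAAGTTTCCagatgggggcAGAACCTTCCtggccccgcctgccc
The run of 4 pentamers printed for Hspe1 lies before the Hspe1 start, within an annotated exon of Hspd1, and is the element of that Hspd1 window as well, read from the other strand. These matches describe letters and not binding.

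HSP90 is a dimeric chaperone that finishes the folding of kinases and steroid receptors, and has an inducible and a constitutive cytosolic form. The constitutive Hsp90ab1 (ENSMUSG00000023944, chromosome 17 from 45567775 to 45573271, minus strand) was at 1087, 1158, 1088 and 1098 CPM in KO and at 1101, 1132, 1054 and 1107 CPM in WT. These levels overlapped (log2 fold change 0.01 ± 0.0651, adjusted p = 0.945, 95% interval -0.13 to 0.15). The inducible Hsp90aa1 (ENSMUSG00000021270, chromosome 12 from 110690605 to 110702728, minus strand) was at 232, 317, 313 and 205 CPM in KO and at 264, 258, 264 and 256 CPM in WT. The genotype test found no difference in the mean (log2 fold change 0.03 ± 0.127, adjusted p = 0.917, 95% interval -0.24 to 0.31) while KO libraries lay on both sides of the WT range, with a coefficient of variation of 21.3% in KO and 1.56% in WT. The high KO libraries, replicates 2 and 3, are the muscle-poor ones, yet the muscle-poor WT replicate 3 held 264 CPM, within the WT range. Without the 3 muscle-poor libraries the sign turned, to -0.24 ± 0.102 (adjusted p = 0.571), and leaving out KO replicate 2 or KO replicate 3 alone gave -0.05. With every library kept and the muscle level as a covariate, the change was 0.00 ± 0.116 (adjusted p = 0.998). The part of muscle RNA in this spread was not tested. Of the Hsp90aa1 windows 47.5% occur in other genes, chiefly the gene model Gm12346. The log2 ratio of Hsp90aa1 to Hsp90ab1 was -2.08 ± 0.296 in KO and -2.08 ± 0.0597 in WT (SD, n = 4 each), with a difference of 0.00 (exact permutation p = 1, two-sided, also 1 adjusted over 3 ratios).

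Hspd1 and Hspe1 encode HSP60 and HSP10, the barrel and the lid of the chaperonin that folds proteins inside mitochondria. They lie head to head on chromosome 1 (Hspd1, ENSMUSG00000025980, 55077835 to 55088243, minus strand; Hspe1, ENSMUSG00000073676, 55088132 to 55091307, plus strand), and 112 bases of exon overlap on opposite strands, 4.24% of Hspd1 and 7.6% of Hspe1. Hspd1 was at 154, 169, 164 and 159.6 CPM in KO and at 172, 179, 179 and 174 CPM in WT, with no overlap (log2 fold change -0.12 ± 0.0617, adjusted p = 0.322, 95% interval -0.26 to 0.01). Hspe1 was at 64.9, 63.8, 66.3 and 71.7 CPM in KO and at 80.2, 75.3, 62.8 and 63.4 CPM in WT. Here WT replicates 1 and 2 were high and WT replicates 3 and 4 lay below every KO library (log2 fold change -0.08 ± 0.0874, adjusted p = 0.684, 95% interval -0.27 to 0.11). It was -0.01 without WT replicate 1, -0.05 without KO replicate 2 or WT replicate 2, -0.12 without WT replicate 3 and -0.13 without WT replicate 4. The log2 ratio of Hspe1 to Hspd1 was -1.28 ± 0.105 in KO and -1.33 ± 0.188 in WT (SD, n = 4 each; difference 0.05, exact permutation p = 0.629, two-sided, 0.943 adjusted over 3 ratios). With 4 libraries a group that test cannot go below 0.0286, or below 0.0857 for a single ratio adjusted over 3, so 1 ratio alone could not have passed 0.05.

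Hspb1 (ENSMUSG00000004951, chromosome 5 from 135887919 to 135889563, plus strand) encodes HSP27, called HSP25 in mice, an ATP-independent chaperone that holds unfolded proteins and stabilises actin filaments. It was the most variable member, at 17.1, 5.71, 5.76 and 10.3 CPM in KO and at 19.6, 16.7, 5.39 and 12.9 CPM in WT. The 3 lowest values were those of the muscle-poor libraries, in both genotypes, and the groups overlapped throughout (log2 fold change -0.49 ± 0.526, adjusted p = 0.685, 95% interval -1.76 to 0.77). With the muscle level as a covariate the change was -0.34 (adjusted p = 0.223), and without the muscle-poor libraries -0.25 (adjusted p = 0.811). Single left-out libraries gave -0.92 (without KO replicate 1) to -0.26 (without WT replicate 1), none called. Of its 100-base windows 42.7% also occur in Hsp25-ps1.

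Several other small heat shock protein genes varied between libraries too. Cryab, the lens and muscle chaperone alpha-B crystallin, was at 47.5, 29.2, 32.9 and 31.3 CPM in KO and at 55.9, 45.9, 29.5 and 41.2 CPM in WT, lowest in the muscle-poor KO replicate 2 and WT replicate 3. The muscle-poor KO replicate 3 lay above KO replicate 4, which is not muscle-poor. Hspb8, which works with BAG3 in clearing damaged proteins, was at 18.3, 7.11, 7.14 and 12.4 CPM in KO and at 15.7, 11.3, 7.18 and 14.4 CPM in WT. The muscle-poor libraries held the 3 lowest Hspb8 values, as they did for Hspb1. Hspb3, a muscle small heat shock protein, reached 0.071 and 0.0904 CPM in the muscle-poor KO libraries and 0.0447 CPM in the muscle-poor WT library, against 0.163 to 1.46 CPM in the others. One count was 0.0184 to 0.0283 CPM, so the values of the muscle-poor libraries and the lowest of the others rest on a few reads each. Hspb6, a small heat shock protein of muscle, had a log2 fold change of -0.22 ± 0.274 (adjusted p = 0.726), which was -0.50 without KO replicate 1 and -0.04 without KO replicate 2. Hspb11 was at 9.26, 9.17, 8.72 and 11.6 CPM in KO and at 10.6, 10.6, 8.54 and 7.5 CPM in WT, lowest in WT replicate 4, which is not muscle-poor. None of the 8 tested genes of the list, Hspb1 included, was called (median log2 fold change -0.23). The part of muscle RNA in these levels was not tested, and fewer muscle cells or less RNA per cell cannot be told apart in bulk tissue. Cryab and Hspb2 share 252 exon bases on opposite strands.

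**Figure D3:**
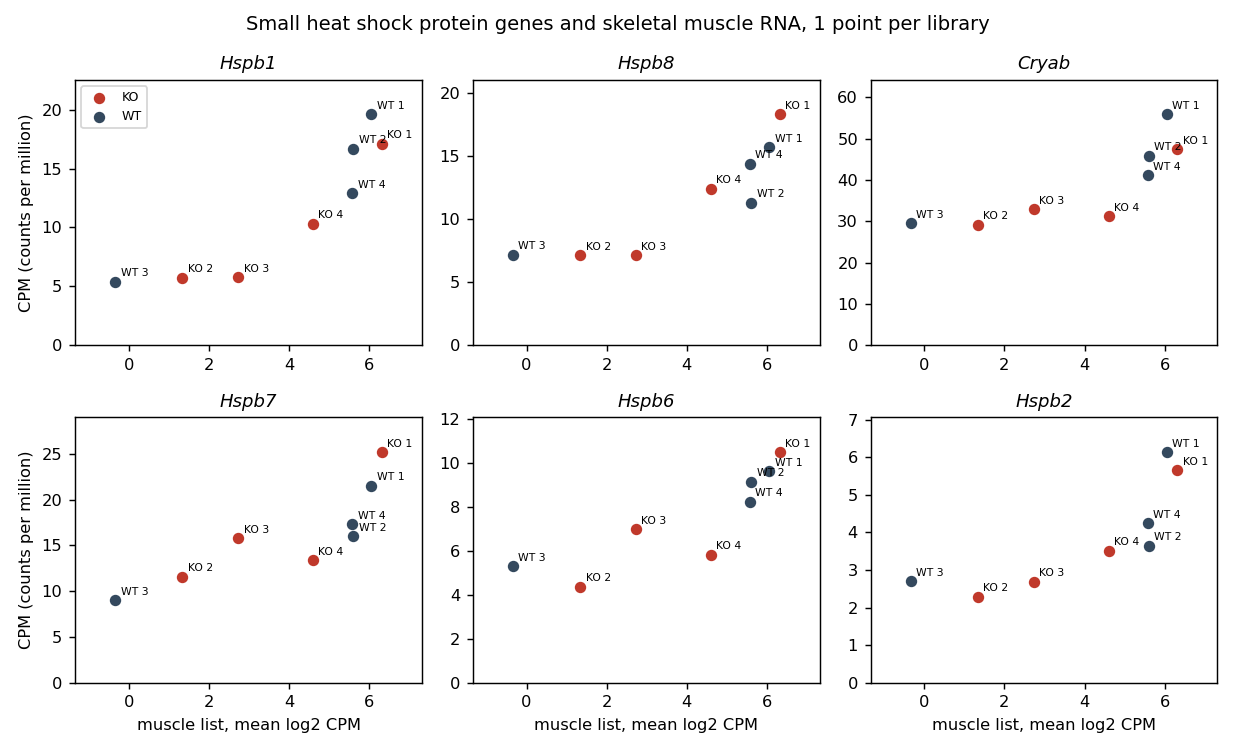
Level in CPM (y axis, from 0) of 6 small heat shock protein genes against the mean log2 CPM of 20 skeletal muscle genes (x axis), 1 point per library. The 6 were picked from the 8 tested genes of the list, without a rule. Hspb3 and Hspb11 are not shown, and Hspb11 was lowest in WT replicate 4, which is not muscle-poor. KO replicates 2 and 3, at muscle levels of 1.34 and 2.73, and WT replicate 3, at -0.34, have Hspb1 between 5.39 and 5.76 CPM, against 10.3 to 19.6 CPM in the others.

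The wider chaperone network was read from 10 lists, with 104 genes beyond the members counted here, of which 102 were tested. Among these 102, edgeR called 0 lower and 0 higher in KO, and 14 (13.7%) had an unadjusted p under 0.05, against 17.4% of all genes. DESeq2 called 3 of them (2.94%), Dnaja1, Dnaja2 and Hspa4, each lower in KO, a share no larger than the 3.44% of all its genes called lower, and limma-voom called none. The median log2 fold change of the 102 was -0.06, against 0.00 over all genes, and 73 (71.6%) were below 0, against 50.1% of all genes. In 16 (15.7%) every KO library lay below every WT library, against 5.96% of all genes. These shares are descriptions with no test.

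HSP70 partners nearest the threshold were 2 J-domain proteins and an HSP110. Dnaja2 was at 110.1, 113, 115 and 105 CPM in KO and at 127, 136, 137 and 129 CPM in WT (log2 fold change -0.26 ± 0.0637, adjusted p = 0.0747). Dnaja1, like Dnaja2 a co-chaperone of cytosolic HSP70, had a log2 fold change of -0.24 ± 0.0668 (adjusted p = 0.108), and Hspa4, an HSP110, one of -0.19 ± 0.0625 (adjusted p = 0.152). For these 3 genes, as for Hspa8, the KO libraries lay below the WT libraries. Within the whole HSP70 and HSP110 list, 4 members included, 12 of 15 were below 0, with a median of -0.17. All 26 J-domain proteins, Dnajb1 included, were tested, and 18 were below 0 (median -0.05).

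Of the HSP90 partners, none of 20 beyond the members was called (median log2 fold change -0.04). Stip1, which links HSP70 to HSP90, had a log2 fold change of -0.06 ± 0.0668 (adjusted p = 0.666). For St13, an HSP70 co-factor, it was -0.17 ± 0.0639 (adjusted p = 0.197), and for Sugt1, an HSP90 co-chaperone, -0.21 ± 0.0678 (adjusted p = 0.155). In both the KO libraries lay below the WT libraries.

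No organelle chaperone was called. The mitochondrial HSP90 gene Trap1 had a log2 fold change of -0.06 ± 0.0576 (adjusted p = 0.626), the mitochondrial HSP70 gene Hspa9 one of -0.09 ± 0.0627 (adjusted p = 0.51) and the mitochondrial J-domain gene Dnaja3 one of -0.13 ± 0.0639 (adjusted p = 0.307). In the endoplasmic reticulum, the HSP90 gene Hsp90b1 was at 897 ± 99.3 CPM in KO and 848 ± 50.7 CPM in WT (log2 fold change 0.08 ± 0.0884, adjusted p = 0.679). The HSP70 gene Hspa5 was at 772 ± 37.5 CPM in KO and 868 ± 23.7 CPM in WT, without overlap (-0.17 ± 0.0672, adjusted p = 0.22). Serpinh1, the collagen chaperone HSP47, was at 3175 ± 146 CPM in KO and 2834 ± 202 CPM in WT (0.16 ± 0.0766, adjusted p = 0.294), and the list's median was 0.01. All 10 chaperonin genes, Hspd1 and Hspe1 included, were below 0 (median -0.11) with none called. Cct6a and Cct5, subunits of the cytosolic ring, had log2 fold changes of -0.19 ± 0.073 (adjusted p = 0.215) and -0.15 ± 0.0666 (adjusted p = 0.284).

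Regulators of the response were measured as well. Hsf1, the main heat shock factor, was at 36.3, 35.8, 30.4 and 31.9 CPM in KO and at 36.3, 37.9, 35.5 and 37.8 CPM in WT (log2 fold change -0.13 ± 0.0738, adjusted p = 0.372). Hsf2, a second factor that pairs with HSF1, was at 20.1, 20.5, 20.6 and 21.4 CPM in KO and at 25.9, 24.7, 24.1 and 21.7 CPM in WT, without overlap (-0.22 ± 0.0739, adjusted p = 0.155). Hsbp1, a small protein that binds HSF1, had a log2 fold change of -0.16 ± 0.0689 (adjusted p = 0.249). Bag3, an HSP70 nucleotide exchange factor and HSF1 target, was at 56.8 ± 6.53 CPM in KO and 61.9 ± 1.34 CPM in WT (SD, n = 4 each; -0.13 ± 0.0809, adjusted p = 0.45), while the exchange factor Bag2 had a log2 fold change of -0.26 ± 0.107 (adjusted p = 0.236) and the mitochondrial exchange factor Grpel1 one of -0.13 ± 0.0781 (adjusted p = 0.432). Of 15 genes known to be induced by HSF1 and counted here, 14 were below 0 (median -0.13).

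Immediate early genes, which respond within minutes to many stimuli, were read in the same fit: 9 of 16 were called lower in KO and none higher, with a median of -0.63 and a summed level of 436 to 477 CPM in KO and 557 to 656 CPM in WT. Of 14 macrophage markers 5 were called, each lower in KO, with a summed level of 563 to 660.2 CPM in KO and 744 to 931 CPM in WT. Their part in the member values was not tested, and the difference between these lists and the heat shock genes was not tested either.

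**Figure D4:**
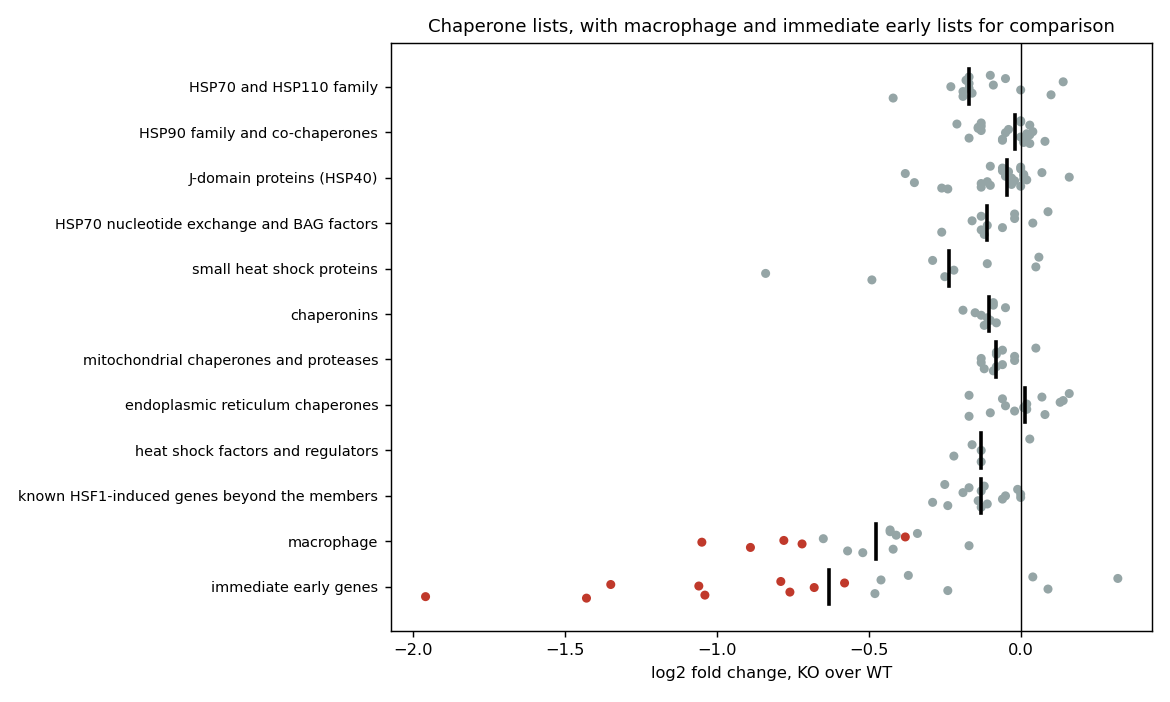
Log2 fold change of KO over WT (x axis) for the tested genes counted here from 10 chaperone lists and from the macrophage and immediate early lists. Points in red passed an adjusted p of 0.05 and black bars are list medians, which are -0.23 to 0.01 in the chaperone lists, -0.47 in the macrophage list and -0.63 in the immediate early list.

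Profiles most like those of the members were sought among tested genes with a mean of at least 1 CPM, by the mean absolute difference over the 8 libraries of log2 CPM centred on each gene's own mean. Nearest the summed Hspa1a and Hspa1b were Tmem106a, Slfn5, Kank4, Pdlim5 and Kcnab1, at 0.0493 to 0.0706, against a median of 0.211 over 13006 genes. Nearest Hspa8 were Rap1gds1, Fnbp1, Vps35l, Adam9 and Kpna3, at 0.0271 to 0.0404, against a median of 0.158. Among the members themselves, Hsph1 was nearest to Hspa8 (0.0746) and Hspb1 farthest (0.645).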

How the data were processed

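RNA of 8 calvaria samples was sequenced after NEBNext Ultra II library preparation, per the labels. The authors deposited raw counts per Ensembl gene, not normalized. bcl2fastq 2.17, STAR 2.5.2b and featureCounts (Subread 1.5.2) are listed with mm10, per the submitters' processing notes. No source used here gives the annotation release, the strand setting or the handling of reads that map to several genes, which bears on near-identical genes. Symbols, places and exons came from GENCODE mouse release 21 (same build). edgeR 4.0.16 in R 4.3.3 was fitted on all 8 libraries and 17743 genes, which held 99.9% of the counts. It used filterByExpr (minimum count 10 and total 15), TMM and a robust quasi-likelihood test, two-sided. The fit was also run on simulated data, with changes larger than the estimated change of any member. That run does not show whether changes as small as those of the members would be found. CPM used TMM-scaled totals, log2 CPM a prior count of 2, and ratios raw counts plus 1. One count was 0.0184 to 0.0283 CPM; intervals cover counting and library spread only as modelled. DESeq2 1.42.0, limma 3.58.1, other scalings and filters, a muscle covariate and left-out libraries were alternatives. The members and lists were chosen with earlier results of these data known. From the lists, 1 gene is not reported here and enters no list count or median, so counts of list genes called cover the remaining genes only. Named genes were all members, called list genes, the 2 of smallest p in each list beyond the members, a fixed set (Hsf1, Hsf2, Bag3, Cryab, Hspb8, Hspa5, Hspa9, Hsp90b1, Stip1, Dnaja1, Trap1) and the 5 nearest profiles; Hspb3, Hspb11, Bglap, Tfrc and Mbp were chosen after their values were seen.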

Additional observations from a re-analysis of the deposited data

Results flagged for a closer look

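In 2 of 74 groups of 4 libraries, 1 library stood far from the other 3 by Dixon's test, where chance gives about 3.7. Hsp90ab1 was at 1158 CPM in KO replicate 2, against 1087 to 1098 CPM in the other KO libraries. Hspa8 was at 1085 CPM in WT replicate 2, the WT library nearest to the KO range, against 1168 to 1184 CPM in the other WT libraries.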

How the results depend on the processing

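Over 18 alternative fits, 8 of the 10 members kept the direction of their change. DESeq2 called 1 member, Hspa8 (-0.22), and 3 of the other chaperone genes counted here, of which the remaining alternatives each called 0. Without the muscle-poor libraries Hsp90aa1 was at -0.24, Hsp90ab1 at -0.02, Bag3 at 0.02, Hsp90b1 at -0.08 and Hspb8 at 0.17, all uncalled. When single libraries were left out, Hsp90aa1 ran from -0.05 to 0.15, Hsp90ab1 from 0.00 to 0.03 and Hspb8 from -0.46 to 0.06. The log2 ratio difference of the Hspa1 pair to Hspa8 was 0.02 without the muscle-poor libraries and -0.12 to 0.02 without single libraries. That of Hsp90aa1 to Hsp90ab1 was -0.22 without the muscle-poor libraries (adjusted exact permutation p = 0.3), against 0.00 in the main setting. The ratios left were -2.23 and -2.42 in KO and -2.06, -2.13 and -2.11 in WT. With so few libraries, 1 ratio alone could not go below 0.3 after adjustment, so that test could not have passed. The log2 ratio difference of Hsp90aa1 to Hsp90ab1 was -0.10 to 0.11 without single libraries. That of Hspe1 to Hspd1 was 0.07 without the muscle-poor libraries and -0.01 to 0.13 without single libraries. In 1 member with library totals and 7 without the muscle-poor libraries every KO library lay below every WT library, a check chosen after seeing the data. Over all genes 234 were called, 952 by DESeq2, 355 without a filter, 8 without the muscle-poor libraries, 57 to 608 without single libraries, and 126 with the replicate block; the causes were not tested. The count was 57 without KO replicate 2, 82 without KO replicate 3, 608 without KO replicate 4 (303 lower and 305 higher), 79 without WT replicate 2, 75 without WT replicate 3 and 105 without WT replicate 4. KO replicate 4 was also the library with the smallest total and the most genes with counts. Whether replicate numbers pair the libraries is not known. Deviations of same-numbered libraries correlated at 0.255, -0.179, 0.34 and -0.00498 over genes. Only KO replicate 3 correlated best with its own number, and every other library correlated best with another number. The highest correlation, 0.556, was between KO replicate 2 and WT replicate 3, both muscle-poor. These values do not decide whether the numbers pair the libraries, and the block called 0 members. Library totals gave 99 genes lower and 113 higher, against 155 and 79 with TMM factors. Hspa1a rested on 42 to 96 counts a library.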
